A study of Mus musculus with 10 samples.

Results

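Annexins are cytosolic proteins that bind acidic phospholipids of membranes when calcium rises, and S100 proteins are small calcium sensors of the EF-hand family, some of which clamp annexins together in pairs. The genes described here are 8 annexins (Anxa1, Anxa2, Anxa3, Anxa5, Anxa6, Anxa7, Anxa8 and Anxa11) and 2 S100 genes whose products are known annexin partners, S100a10, the partner of annexin A2, and S100a11, a partner of annexin A1. All 10 were found by symbol among the 17658 genes of the SB431542 table and among the 16719 genes of the T-5224 table. Anxa8 was picked on its lower RPKM with both inhibitors in these data, so its changes are given as a description with no test.

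Annexins link the cell membrane to the actin cytoskeleton, take part in vesicle traffic and gather at membrane wounds during repair. The complex of annexin A2 and S100A10 also holds plasminogen and its activator at the cell surface, where plasmin is made. In epidermis, several annexins and S100 proteins are abundant in keratinocytes, and most S100 genes lie in a cluster with other epidermal genes.

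RNA-seq was performed in ASZ001, a murine basal cell carcinoma (BCC) cell line that is resistant to inhibition of Smoothened, so a single line stands for the tumor. Cells were kept in low-serum medium for 24 h with 10 µM SB431542, an inhibitor of the TGFß receptor ALK5 (n = 3), with 20 µM T-5224, an inhibitor of the transcription factor AP-1 (n = 2), or with the vehicle DMSO. Each inhibitor had DMSO libraries of its own, 3 for SB431542 and 2 for T-5224, and the study calls the replicates biological, although their p-values measure only the spread between these libraries. Values are reads normalized to gene length and library size (RPKM) by the authors, at a depth of 31.9 to 51.4 M reads per library as worked out from the values of short genes. Library DMSO 1 of the SB431542 experiment stood apart from the other DMSO libraries of its table, with an SD of 0.27 on the log2 scale over all genes tested, against 0.16 and 0.19 for the other two, so members that depend on it are given with and without it. Of 10 basal keratinocyte markers, all 10 were at 1 RPKM or more in every group, and of the 7 fibroblast, 7 immune, 4 endothelial and 4 melanocyte markers at most 1 of each list was.

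Because T-5224 targets AP-1, promoter sequence was read for the members that had a RefSeq promoter. RefSeq promoters (GRCm38.p6) were found for 7 of the 10 members, and none for Anxa3, Anxa6 and S100a10. The 250 bases before the RefSeq start were searched on both strands for the AP-1 element TGACTCA and the palindromic SMAD element GTCTAGAC. In the other direction the AP-1 element reads as TGAGTCA. The AP-1 element was found in 4.46% of all 32851 promoters and the SMAD palindrome in 0.167%. Anxa2 had 1 AP-1 match, 95 to 89 bases before its RefSeq start. S100a11 had 2, at 136 to 130 and at 38 to 32 bases before its RefSeq start. No match to the AP-1 element or the SMAD palindrome was found in the windows of Anxa1, Anxa5, Anxa7, Anxa8 or Anxa11. The searched window of Anxa1 lies wholly within the gene as annotated by GENCODE. The promoters of Anxa2 and S100a11 are shown for the matches, in capitals, and that of Anxa8 because this gene was the one picked for both inhibitors. Each is on the plus strand, from chr9:69453433-69453619, chr3:93520246-93520487 and chr14:34085729-34085978 of GRCm38.p6. The printed part ends before the RefSeq or the GENCODE start of the gene, whichever comes first. Thus 187 of the 250 bases are shown for Anxa2 and 242 for S100a11.
Anxa2: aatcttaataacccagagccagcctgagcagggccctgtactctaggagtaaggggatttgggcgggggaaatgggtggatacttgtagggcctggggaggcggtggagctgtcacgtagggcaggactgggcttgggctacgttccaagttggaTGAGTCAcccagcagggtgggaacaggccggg
S100a11: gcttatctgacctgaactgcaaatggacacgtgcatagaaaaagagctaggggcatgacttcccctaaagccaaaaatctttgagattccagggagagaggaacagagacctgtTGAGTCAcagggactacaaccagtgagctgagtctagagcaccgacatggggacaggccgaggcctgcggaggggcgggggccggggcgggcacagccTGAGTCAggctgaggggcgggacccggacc
Anxa8: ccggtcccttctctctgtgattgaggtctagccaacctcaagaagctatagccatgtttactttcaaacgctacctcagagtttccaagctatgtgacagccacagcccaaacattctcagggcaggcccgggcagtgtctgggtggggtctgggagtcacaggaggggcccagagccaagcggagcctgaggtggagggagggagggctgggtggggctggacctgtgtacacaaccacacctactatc
The match is a description of letters and not of a bound site. The shorter SMAD box CAGAC, which was found in 42.2% of all promoters, had 2 matches in the window of Anxa8 and 2 in that of Anxa5.

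In cells given DMSO, the members covered a wide range of expression. The S100 partners, Anxa2 and Anxa1 were the most abundant and Anxa7 and Anxa11 the least. In the SB431542 table the DMSO means were 813 ± 210.3 RPKM for S100a11 (SD, n = 3), 468 ± 24.1 RPKM for Anxa2, 442 ± 47.8 RPKM for S100a10 and 266 ± 35.4 RPKM for Anxa1. They were 173 ± 10.49 RPKM for Anxa3, 107 ± 3.66 RPKM for Anxa5, 65.6 ± 4.04 RPKM for Anxa8, 59.2 ± 3.32 RPKM for Anxa6, 25.3 ± 0.117 RPKM for Anxa11 and 20.4 ± 1.31 RPKM for Anxa7. Among neighbours in this order, the libraries overlapped for Anxa2 and S100a10 and were apart for the others, and S100a11 ranked 35 and Anxa7 3808 of all 17658 genes. In the T-5224 table the DMSO order ran Anxa2, S100a10, S100a11, Anxa1, Anxa8, Anxa5, Anxa6, Anxa3, Anxa7 and Anxa11, from 404 ± 5.88 RPKM (SD, n = 2) to 12.1 ± 0.905 RPKM, with no overlap between neighbours. S100a11 was at 275 ± 12.5 RPKM and Anxa8 at 184 ± 5.67 RPKM there. The tables were normalized separately, so their DMSO levels were not tested against each other.

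**Figure D1:**
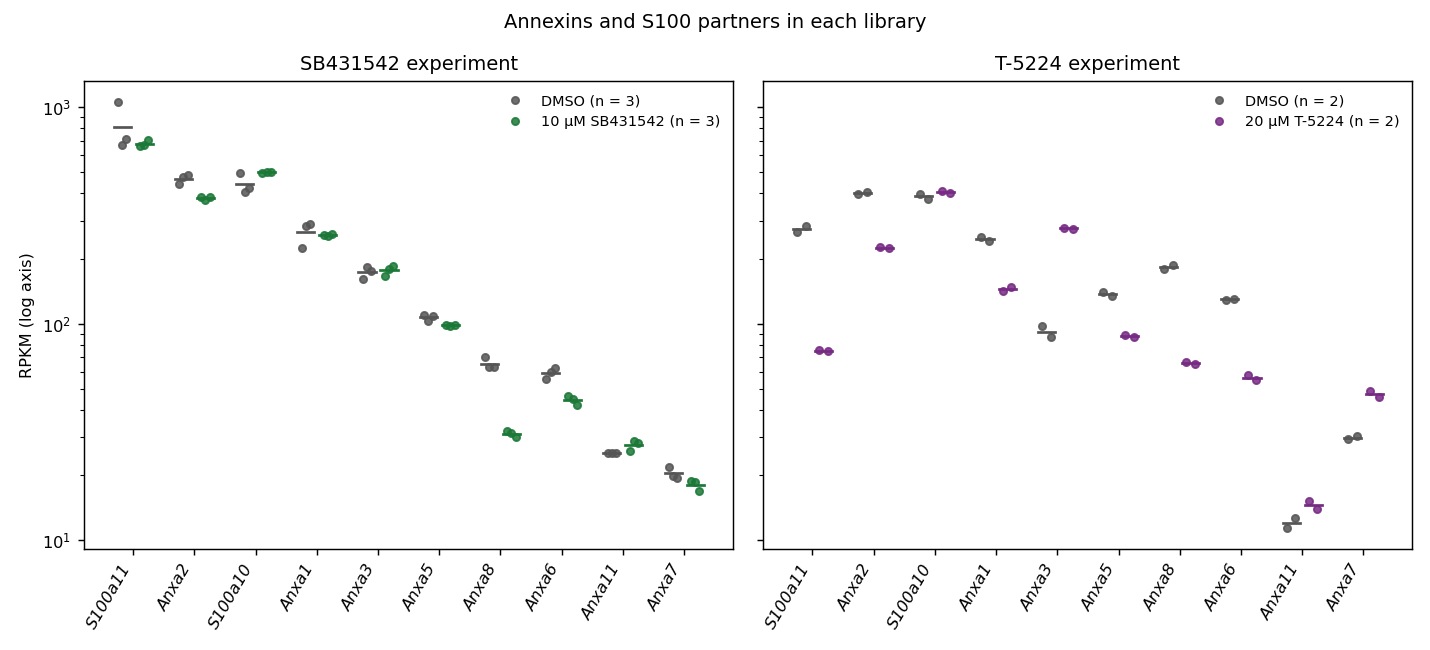
RPKM of each member in each library on a log axis, with SB431542 and its DMSO on the left and T-5224 and its DMSO on the right; points are libraries and bars are group means. Anxa8 lies lower in every inhibitor library of both experiments, and S100a11 of DMSO 1 (1054 RPKM) lies above the other libraries of the SB431542 experiment.

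Anxa8 (chromosome 14, 34899167 to 34913757, plus strand) encodes an annexin first described as an inhibitor of blood coagulation. All gene positions are those of mm9 (NCBIM37). Its RPKM was 70.2, 63.0 and 63.5 with DMSO and 31.9, 31.3 and 29.9 with SB431542. In the experiment with T-5224 it was 179.9 and 188 with DMSO and 66.9 and 65.4 with T-5224. The groups did not overlap in either experiment, and the inhibitor libraries varied little. The fitted log2 fold change was -1.07 (SE 0.06) with SB431542 and -1.47 (SE 0.05) with T-5224, which are 2.09-fold and 2.77-fold lower levels. Leaving out any 1 library gave log2 fold changes from -1.09 to -1.02 with SB431542 and from -1.499 to -1.44 with T-5224.

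Among the 10461 other genes tested in both tables, those nearest to Anxa8 in Euclidean distance over the 10 libraries, on log2(RPKM + 0.5) less the mean of the DMSO libraries of the same table, were Calcoco1 (0.289), Inhba (0.290), Dbn1 (0.322), Mmp14 (0.344) and Cpt1a (0.346). Inhba encodes the subunit of activin A, a ligand of the TGFß family, and Mmp14 a membrane-bound matrix metalloproteinase. Their log2 fold changes ran from -1.09 (Calcoco1) to -0.90 (Dbn1) with SB431542 and from -1.63 (Mmp14) to -1.26 (Cpt1a) with T-5224. These genes were picked for lying near Anxa8 in the same libraries, so that they were lower with both inhibitors was set by that choice. The nearest member was Anxa6, at rank 207 with a distance of 1.23.

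With SB431542, 2 of the 9 members other than Anxa8 passed the test (an adjusted p under 0.05) as lower, Anxa2 and Anxa6, and 0 as higher, where 10.0% of all 10842 genes tested passed as lower and 10.2% as higher. At a fold change over 2 as well, 0 of the 9 were lower and 0 higher, against 0.581% and 0.231% of all genes tested. Anxa8, picked on this comparison, is not counted. The median log2 fold change was -0.12 over the 9 and 0.01 over all genes tested. Without library DMSO 1, 4 of the 9 were lower and 1 was higher, while 1900 and 2163 of all genes were, against 1085 and 1107 with it.

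Anxa2 (chromosome 9, 69301427 to 69339602, plus strand) encodes the annexin that forms a complex with S100A10 at the plasma membrane. Its RPKM was 441, 475 and 488 with DMSO and 385, 373 and 386 with SB431542. Every SB431542 library was below every DMSO library. The log2 change of Anxa2 was -0.29 (SE 0.06, adjusted p = 0.0133, limma), which did not pass when SB431542 library 1, 2 or 3 was left out (adjusted p = 0.0608, 0.0751 and 0.0610). An annotated transcript on the same strand and one on the opposite strand overlap Anxa2, and whether reads were counted by strand is not given in the sources used here.

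Anxa6 (chromosome 11, 54792610 to 54846947, minus strand) encodes a large annexin with a doubled core that binds cholesterol-rich membranes. Its RPKM was 55.7, 59.8 and 62.3 with DMSO and 46.6, 44.8 and 42.1 with SB431542. The groups did not overlap. The log2 fold change was -0.41 (SE 0.06, adjusted p = 0.00606), and it passed in each of the 6 fits that left out 1 library, with an adjusted p of at most 0.0370.

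The S100 partner of annexin A2 did not pass. S100a10 (chromosome 3, 93359002 to 93368565, plus strand), which encodes p11, an S100 protein that no longer needs calcium to bind its partner, was at 497, 408 and 422 RPKM with DMSO and 499, 504 and 502 RPKM with SB431542. The highest DMSO library, DMSO 1, reached nearly the level of the SB431542 libraries, which lay close together. The log2 difference of S100a10 was 0.19 (95% interval 0.00 to 0.37, adjusted p = 0.136). Without DMSO 1 it was 0.27 (adjusted p = 2.10e-04).

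S100a11 (chromosome 3, 93324410 to 93330209, plus strand), whose product binds the amino-terminal end of annexin A1, was at 1054, 669 and 716 RPKM with DMSO and 663, 667 and 707 RPKM with SB431542. The DMSO libraries spanned the SB431542 libraries, with DMSO 1 far above the rest. The log2 fold change was -0.23 (95% interval -0.60 to 0.14, adjusted p = 0.332) and -0.03 without DMSO 1. At 2 other loci the genome holds near copies of S100a11, with up to 98.6% identity over 502 of its 511 bases, so its values are uncertain where reads could be split.

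The other annexins did not pass with SB431542. Anxa1 (chromosome 19, 20447918 to 20465434, minus strand), an inhibitor of inflammation that signals through formyl peptide receptors, was at 225, 283 and 289 RPKM with DMSO and 257, 255 and 261 RPKM with SB431542. The DMSO libraries lay on both sides of the SB431542 libraries, and the log2 fold change was -0.04 (95% interval -0.26 to 0.19, adjusted p = 0.817). Without DMSO 1, the lowest DMSO library for this gene, it was -0.15 (adjusted p = 0.00398). Anxa5 (chromosome 3, 36347847 to 36374765, minus strand), whose product binds phosphatidylserine and is used to mark apoptotic cells, was at 107 ± 3.66 RPKM with DMSO and 98.5 ± 0.361 RPKM with SB431542 (SD, n = 3). Its log2 fold change was -0.12 (95% interval -0.24 to -0.01, adjusted p = 0.112), and -0.10 (adjusted p = 0.0390) without DMSO 1.

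Anxa3 (chromosome 5, 97222404 to 97274987, plus strand), Anxa7 (chromosome 14, 21274483 to 21299355, minus strand) and Anxa11 (chromosome 14, 26661669 to 26706290, plus strand) did not pass with SB431542. Annexin A3 is an annexin of neutrophils and epithelia, annexin A7 (synexin) aggregates granules, and annexin A11 binds the S100 protein calcyclin and links RNA granules to lysosomes. The log2 fold changes were 0.03 (95% interval -0.12 to 0.19) for Anxa3, -0.17 (-0.33 to -0.01) for Anxa7 and 0.12 (-0.01 to 0.25) for Anxa11. Anxa11 has near copies at 2 other loci of its chromosome that cover 59.2% of its transcript, so its values are uncertain as well. The summed RPKM of the 8 annexins was 1185 ± 64.2 with DMSO and 1035 ± 10.6 with SB431542 (SD, n = 3), with no overlap between groups. The sum includes Anxa8, picked as lower with both inhibitors, so part of the difference was set by that choice.

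**Figure D2:**
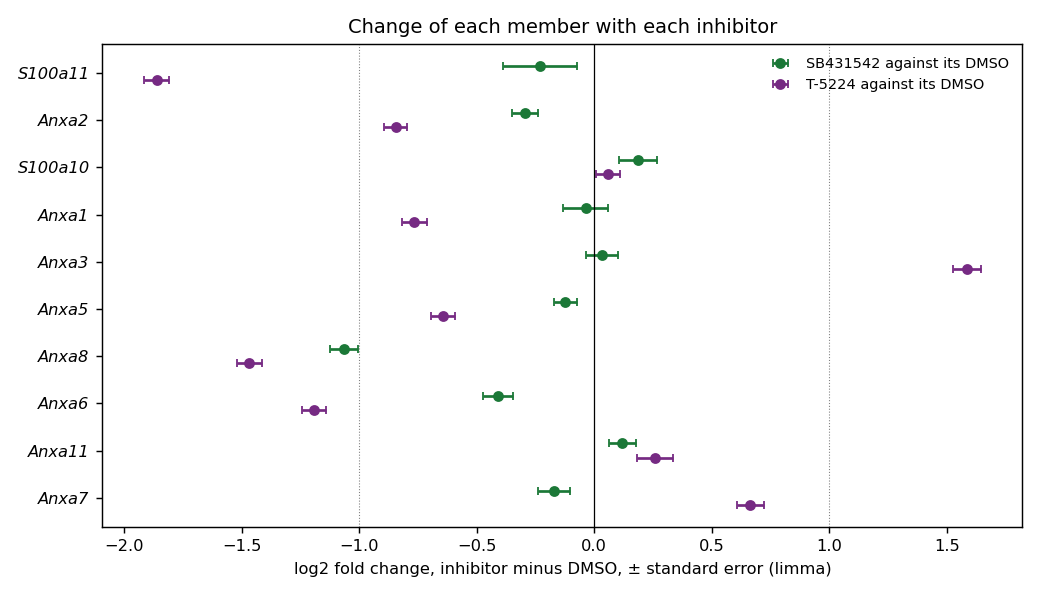
Log2 fold change of each member, inhibitor minus DMSO of the same table, from limma on log2(RPKM + 0.5); bars are standard errors and dotted lines mark 2-fold changes. With SB431542 only Anxa8 of the 10 members lies beyond 2-fold, and with T-5224 Anxa6, Anxa8 and S100a11 lie below and Anxa3 above.

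With T-5224, 5 of the 9 members other than Anxa8 were lower and 3 were higher, where 39.4% of the 10809 genes tested were lower and 40.3% higher. At a fold change over 2 as well, 2 were lower, Anxa6 and S100a11, and 1 was higher, Anxa3, against 10.6% and 10.4% of all genes tested. The median log2 fold change was -0.64 over the 9 and 0.00 over all genes tested. In the same libraries the summed RPKM of the 10 basal keratinocyte markers fell from between 15761 and 16632 with DMSO to between 2706 and 2823 with T-5224. Of the 10, 9 were lower and 1 was higher. With SB431542 the sum was between 8233 and 8798 against 11713 to 11922 with DMSO, but the markers were mixed. There 4 of the 10 were lower and 2 higher, against 10.0% and 10.2% of all genes tested, and their median log2 fold change was 0.01. The 10 differentiated keratinocyte markers summed to between 18.0 and 33.8 RPKM with DMSO and between 34.6 and 41.3 RPKM with SB431542, and to between 43.8 and 56.9 RPKM with DMSO and between 45.8 and 48.0 RPKM with T-5224. Of the 3 tested, Sprr1a passed as higher with SB431542 (log2 fold change 1.12), but not without SB431542 library 1 or 2 (adjusted p = 0.0507 and 0.0549). With T-5224 Sprr1a was higher (1.46) and Sprr1b and Krt10 were lower (-0.67 and -0.73). The 7 immune markers summed to between 16.7 and 18.6 RPKM with DMSO and between 32.7 and 33.2 RPKM with T-5224. With T-5224, 1 of them was at 1 RPKM or more and 5 were at 0 or not listed. That 1 was Cd68, with means of 17.6 RPKM with DMSO and 33.0 RPKM with T-5224 (log2 fold change 0.89, adjusted p = 2.22e-07). Of the fibroblast markers only Dcn was tested. It was higher with SB431542 (0.68, adjusted p = 0.00178) and with T-5224 (0.35, adjusted p = 0.0146). The latter call was lost with no filter on low values (adjusted p = 0.0532). The 4 endothelial markers summed to between 10.9 and 12.0 RPKM with DMSO and between 4.13 and 4.67 RPKM with T-5224, and to between 5.30 and 6.74 RPKM with DMSO and between 2.74 and 2.99 RPKM with SB431542. Pecam1 made up nearly all of it and was lower with both inhibitors (log2 fold change -0.97 with SB431542 and -1.27 with T-5224, adjusted p = 0.00103 and 1.27e-07), while Cdh5 and Kdr, other endothelial markers, were not listed or at most 0.013 RPKM. The part of these shifts in the annexin values was not tested. In bulk RNA, fewer cells of a type and less RNA per cell cannot be told apart.

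S100a11 fell most of the members. Its RPKM was 266 and 284 with DMSO and 75.4 and 75.0 with T-5224, a 3.64-fold lower level. The groups were far apart and the T-5224 libraries nearly equal. On the log2 scale the change was -1.86 (SE 0.05, adjusted p = 6.61e-11).

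The other S100 partner did not pass. S100a10 was at 399 and 379 RPKM with DMSO and 408 and 400.0 RPKM with T-5224. The lowest T-5224 library was just above the highest DMSO library. The change on the log2 scale was 0.06 (95% interval -0.06 to 0.17, adjusted p = 0.325), and quantile normalization turned its sign, to -0.06 (adjusted p = 0.121). Anxa2, whose product it binds, was at 399.8 and 408 RPKM with DMSO and 226 and 223 RPKM with T-5224. Its groups did not overlap, and the log2 fold change was -0.84 (SE 0.05, adjusted p = 2.38e-08).

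Anxa1, Anxa5 and Anxa6 also fell. Anxa6 was at 129 and 131 RPKM with DMSO and 57.9 and 55.0 RPKM with T-5224, a log2 fold change of -1.19 (SE 0.05, adjusted p = 2.54e-09). Anxa1 was at 252 and 241 RPKM with DMSO and 142 and 148 RPKM with T-5224, a log2 fold change of -0.77 (SE 0.05, adjusted p = 8.94e-08). In both genes every T-5224 library was below every DMSO library. Anxa5 was at 139.8 and 134 RPKM with DMSO and 88.4 and 86.5 RPKM with T-5224, a log2 fold change of -0.64 (SE 0.05, adjusted p = 3.52e-07), again with no overlap. The summed RPKM of the 8 annexins was 1235 ± 4.46 with DMSO and 918 ± 7.58 with T-5224 (SD, n = 2). Anxa8, picked as lower, is again part of the sum and of its fall.

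Anxa3 rose while these annexins fell. It was at 97.3 and 86.9 RPKM with DMSO and 278 and 275 RPKM with T-5224. The T-5224 libraries lay 2.999-fold higher on average, with a log2 fold change of 1.58 (SE 0.06, adjusted p = 6.73e-10), and with T-5224 it was the most abundant of the annexins measured. Anxa7 was at 29.2 and 30.5 RPKM with DMSO and 49.1 and 46.2 RPKM with T-5224. It rose by 0.66 on the log2 scale (SE 0.06, adjusted p = 8.69e-07), without overlap of the groups. Anxa11, which has near copies elsewhere, was at 11.5 and 12.7 RPKM with DMSO and 15.2 and 13.98 RPKM with T-5224, a log2 fold change of 0.26 (SE 0.08, adjusted p = 0.00868). That call was lost when T-5224 library 1 was left out (adjusted p = 0.0935).

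The level of an annexin against that of its S100 partner was compared within each library, a measure chosen after the values were seen and given with no test. The ratio of Anxa2 to S100a10 was 0.887, 1.16 and 1.16 with DMSO and 0.772, 0.739 and 0.769 with SB431542. In the experiment with T-5224 it was 1.003 and 1.08 with DMSO and 0.554 and 0.557 with T-5224. With either inhibitor the ratio lay below that of every DMSO library of its table. It was below 1 in every inhibitor library and, of the DMSO libraries, in DMSO 1 alone. The ratio of Anxa1 to S100a11 was 0.213 in DMSO 1, 0.424 and 0.404 in the other DMSO libraries and 0.388, 0.382 and 0.369 with SB431542. The groups overlapped through DMSO 1 alone: the mean with DMSO was 0.347 with it, below the 0.380 with SB431542, and 0.414 without it, above. It was 0.898 ± 0.0701 with DMSO and 1.93 ± 0.0627 with T-5224 (SD, n = 2), where the groups were apart.

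**Figure D3:**
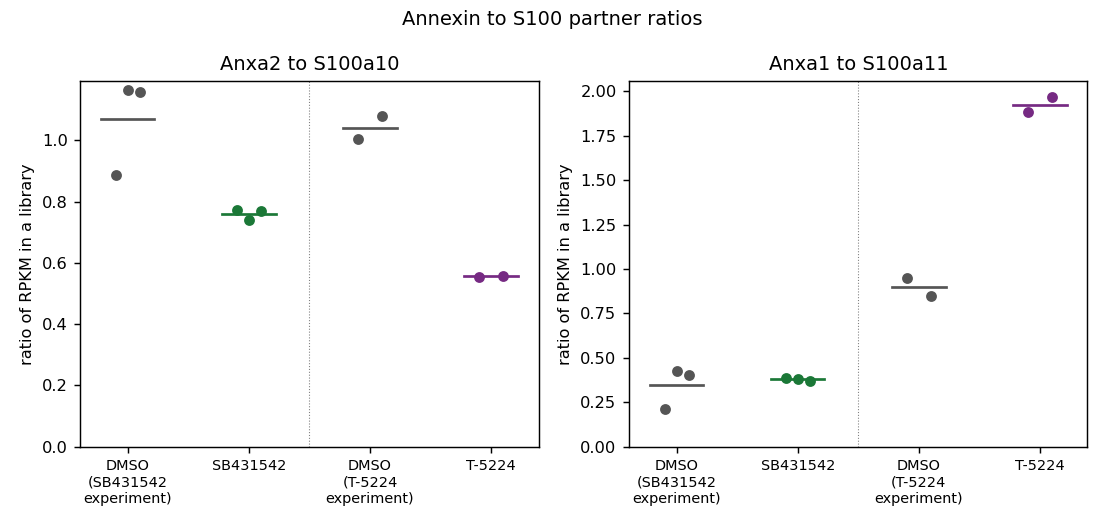
Ratio of RPKM of an annexin to that of its S100 partner in each library, with Anxa2 over S100a10 on the left and Anxa1 over S100a11 on the right; points are libraries and bars are group means. Anxa2 over S100a10 lies lower with each inhibitor than in its own DMSO libraries, and Anxa1 over S100a11 lies higher with T-5224.

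The genes nearest to Anxa2 over the 10 libraries, by the distance used for Anxa8, were Mex3a (0.155), Plscr3 (0.164), Casd1 (0.177), Atp6v1e1 (0.186) and Trp53bp1 (0.189). Plscr3 encodes a phospholipid scramblase. Of the members, Anxa5 was at rank 395 and Anxa1 at rank 594 of the 10461 genes, and S100a10 was at rank 5655.

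The remaining genes of both families were read from the same fits. Of 4 other annexins, only Anxa4 was expressed enough to be tested, an annexin of epithelia. Its log2 fold change was -0.12 (adjusted p = 0.219) with SB431542 and -0.37 (adjusted p = 3.15e-05) with T-5224. Of 15 other S100 genes, 5 were tested in each table, S100a3, S100a4, S100a6, S100a14 and S100a16. With SB431542 all 5 were higher, where 10.2% of all genes tested were. With T-5224 3 were lower, 1 was higher and 1 did not pass, where 39.4% of all genes tested were lower and 40.3% higher.

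S100a6 (calcyclin; chromosome 3, 90416816 to 90418336, plus strand), a partner of annexin A2 and annexin A11, was the most abundant of these. It was at 390.0, 440.4 and 459 RPKM with DMSO and 602, 597 and 544 RPKM with SB431542, without overlap, a log2 fold change of 0.44 (SE 0.08, adjusted p = 0.00977). In the experiment with T-5224 its level was 868 and 885 RPKM with DMSO and 146 and 134 RPKM with T-5224, a 6.27-fold lower level and a log2 fold change of -2.65 (SE 0.06, adjusted p = 8.11e-12). The inhibitor libraries thus lay above DMSO in one experiment and far below it in the other, and the difference between the inhibitors was not tested.

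S100a3 (90404137 to 90406624) and S100a4 (90407692 to 90409967) lie in the same cluster of chromosome 3 as S100a6, with S100a5 between them and it, and S100a4 encodes a protein known for its link to metastasis. S100a4 was at 8.52, 6.46 and 4.91 RPKM with DMSO and 9.78, 11.6 and 9.86 RPKM with SB431542, and at 13.4 and 17.6 RPKM with DMSO and 1.09 and 1.42 RPKM with T-5224. Every SB431542 library was above, and every T-5224 library below, its DMSO libraries. The log2 fold change was 0.64 (adjusted p = 0.0399) with SB431542 and -3.18 (adjusted p = 1.45e-09) with T-5224. For S100a3 it was 0.41 (adjusted p = 0.0346) and -2.79 (adjusted p = 8.40e-10).

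S100a14 rose with both inhibitors. It encodes an S100 protein of epithelia. It was at 15.1, 18.2 and 17.03 RPKM with DMSO and 22.4, 22.2 and 21.8 RPKM with SB431542, a log2 fold change of 0.39 (adjusted p = 0.0116). In the experiment with T-5224 S100a14 was at 29.2 and 29.3 RPKM with DMSO and 91.6 and 86.0 RPKM with T-5224, a log2 fold change of 1.58 (adjusted p = 3.92e-10). The groups did not overlap in either experiment. For S100a16 the log2 fold change was 0.30 (adjusted p = 0.0294) with SB431542 and -0.08 (adjusted p = 0.216) with T-5224, and the latter passed under quantile normalization (-0.16, adjusted p = 0.0153) and without T-5224 library 1 (adjusted p = 0.0494).

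Single libraries decided several S100 calls with SB431542. Of the 6 fits that left out 1 library, S100a6 passed in 4, S100a14 in 3, S100a3 in 2, S100a16 in 2 and S100a4 in 1. S100a6 missed the threshold without SB431542 library 1 or 2, S100a14 without any 1 SB431542 library, S100a3 and S100a16 also without DMSO 2, and S100a4 passed only without DMSO 1. With no filter on low values, S100a3, S100a4 and S100a16 did not pass (adjusted p = 0.0755, 0.0852 and 0.0513). The highest adjusted p with 1 library left out ran from 0.0550 for S100a6 to 0.138 for S100a4. With T-5224, S100a3, S100a4, S100a6 and S100a14 passed in each of the 4 such fits.

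**Figure D4:**
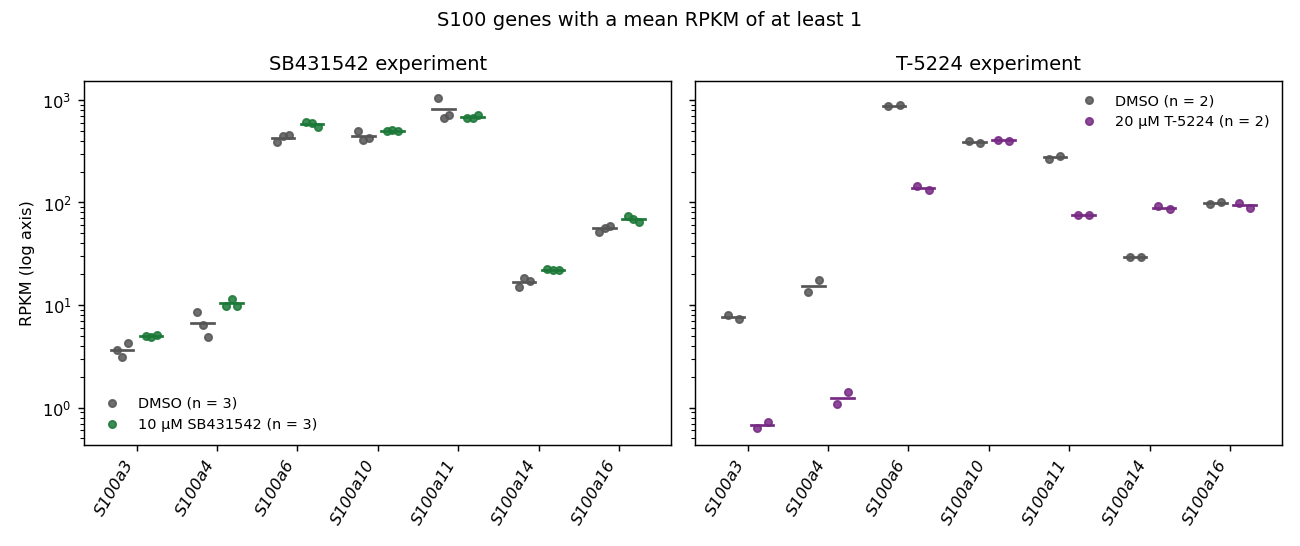
RPKM of the 7 tested S100 genes in each library on a log axis, in the SB431542 experiment (left) and the T-5224 experiment (right); points are libraries and bars are group means. S100a6 lies between 544 and 602 RPKM with SB431542 and between 134 and 146 RPKM with T-5224, above and below its DMSO libraries.

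Genes of the processes in which annexins act were also counted. Of 12 genes for annexin binding partners and receptors, 6 were tested with SB431542. Of these, 2 were lower and 0 higher, where 10.0% and 10.2% of all genes tested were. The lower genes were Myof (log2 fold change -0.21) and Sri (-0.23). Myof encodes myoferlin, a protein of membrane repair, and Sri encodes sorcin, a calcium sensor that binds annexin A7. Each passed in 2 of the 6 fits that left out 1 library, and both missed the threshold without any 1 SB431542 library, Myof also without DMSO 2 and Sri also without DMSO 3. With T-5224, 3 of 5 were lower and 1 was higher, where 39.4% and 40.3% of all genes tested were. Ahnak, whose large product is held at the membrane by annexin A2 and S100A10, was at 96.1 and 109 RPKM with DMSO and 26.6 and 29.1 RPKM with T-5224, a log2 fold change of -1.86 (SE 0.07, adjusted p = 7.31e-10). Its T-5224 libraries were far below DMSO. Myof (-0.30) and Sri (-0.33) were lower too. Pdcd6, which encodes the calcium sensor ALG-2, was higher (0.18), but not without DMSO column 2 or T-5224 library 1 (adjusted p = 0.0859 and 0.0877).

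Of 6 genes for plasminogen activation, 5 were tested in each table. With SB431542, 3 were higher and 0 lower, where 10.2% of all genes tested were higher and 10.0% lower. All 3 passed in each fit that left out 1 library. Plat, the tissue activator that binds annexin A2 with S100A10, was at 9.79 ± 0.909 RPKM with DMSO and 15.9 ± 0.215 RPKM with SB431542 (SD, n = 3), a log2 fold change of 0.67 (adjusted p = 0.00158). Plaur, the receptor of urokinase, changed by 0.95 and Serpine2, an inhibitor of plasminogen activators, by 0.41. With T-5224, 3 were lower and 2 higher, where 39.4% and 40.3% of all genes tested were. Plat fell by 0.95 and Plau, which encodes urokinase, by 1.30 on the log2 scale (adjusted p = 8.25e-07 and 1.80e-07). Serpine2 fell by 0.28. Plaur was at 0.331 and 0.219 RPKM with DMSO and 16.6 and 17.7 RPKM with T-5224, a log2 fold change of 4.51 on log2(RPKM + 0.5) (adjusted p = 1.83e-11), and Serpinb2 rose by 0.97. The receptor was near 0 in both DMSO libraries and well expressed in both T-5224 libraries.

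Of 13 genes for membrane repair and phospholipid scrambling, 10 were tested in each table. With SB431542, 3 were lower, Cav1 (-0.20), Plscr3 (-0.27) and Chmp4b (-0.23), and 1 was higher, Plscr1 (0.76). Of all genes tested, 10.0% were lower and 10.2% higher. Plscr1 passed in each of the 6 fits that left out 1 library, Plscr3 in 3, Chmp4b in 2 and Cav1 in 1. Cav1 passed only without DMSO 1, Chmp4b only without DMSO 1 or DMSO 3, and Plscr3 did not pass without DMSO 3 or SB431542 library 1 or 3. With T-5224, 4 were lower and 3 were higher, where 39.4% and 40.3% of all genes tested were. Cav1, which encodes the coat protein of caveolae, fell by 1.15 and Capn1, a calcium-activated protease, by 1.09 on the log2 scale (adjusted p = 4.87e-08 and 7.65e-09). Plscr3 and Vps4b were also lower (-0.82 and -0.41), and Plscr1 (1.21), Capns1 (0.65) and Pdcd6ip (0.20) were higher. The call of Pdcd6ip was lost without T-5224 library 1 (log2 fold change 0.15). Plscr1 was low, between 0.407 and 0.497 RPKM with DMSO and between 1.66 and 1.76 RPKM with T-5224. Only 2 of the 4 fits that left out 1 library included it, since it fell under the filter in the others.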

How the data were processed

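RNA-seq libraries of ASZ001 cells were made with a stranded mRNA kit. Alignment to mm9 was with TopHat, and the authors deposited RPKM per gene, made with HOMER, in 1 table per inhibitor. How reads in overlapping genes or near copies were counted is not given in the sources used here. Rows whose symbol had become a date were left out (22 and 23). The test covered the 10842 and 10809 genes whose RPKM averaged 1 or more over a table, on log2(RPKM + 0.5) with limma 3.58.1 (R 4.3.3, mean-variance trend, two-sided), and p-values were adjusted by Benjamini-Hochberg over all genes tested. The study used DESeq2 on counts, and counts were not analysed here. A gene passed at an adjusted p under 0.05. Fold changes are on the log2(RPKM + 0.5) scale and understate changes of genes of low RPKM. DMSO columns of the T-5224 table are numbered 1 and 2 and the labels number these libraries 4 and 5, so each was used as a DMSO library with no number of its own.

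The members and gene lists were chosen with earlier results of these data known. All 10 members were named, genes of the lists that passed could be named, and the nearest genes were the 5 with the smallest distance to Anxa8 and to Anxa2. Gene positions were taken from GENCODE on NCBIM37, which is the assembly behind mm9. Near copies are other loci with at least 95% identity over at least 200 bases. Depth came from values of genes under 250 bases with under 6 reads, of which at least 99.1% were whole reads within 0.05, and each member value rested on at least 594 reads. Protein sequences were not used here, and 1 gene of the lists is not reported here. The fit was tested on simulated data. Alternatives were pseudocounts of 0.1 and 1, no filter or a mean RPKM of at least 5, median centring, quantile normalization, no trend, a replicate block for SB431542 and each library left out. A block by column number for T-5224 was added after seeing the data.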

Additional observations from a re-analysis of the deposited data

Results flagged for a closer look

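In 8 of the 52 genes of the annexin, S100, partner, plasminogen, membrane repair and cell type marker lists that were tested in both tables, every library of one inhibitor lay above its DMSO libraries and every library of the other lay below. The same held for 1095 (10.5%) of the 10462 genes tested in both tables. The difference between the inhibitors was not tested for any of them, since the tables were normalized separately. Among the members this was Anxa7, with a log2 fold change of -0.17 with SB431542, which did not pass, and 0.66 with T-5224. For the S100 genes, the values with SB431542 and with T-5224 were 0.41 and -2.79 for S100a3, 0.64 and -3.18 for S100a4, and 0.44 and -2.65 for S100a6. Plat, which encodes tissue plasminogen activator, was at 0.67 and -0.95, and Serpine2, an inhibitor of such proteases, at 0.41 and -0.28. Chmp4b, which encodes a subunit of the ESCRT machinery, was at -0.23 and 0.10, of which the latter did not pass. Krt15, a basal keratin, was at 0.49 and -4.80. The call of Krt15 with SB431542 passed in 2 of the 6 fits that left out 1 library, those without DMSO 1 or SB431542 library 3.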

How the results depend on the processing

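The depth of 31.9 to 51.4 M reads put at least 594 reads behind each member value, so replicate spread, with 3 or 2 libraries a group, limits the comparisons. With SB431542, leaving out 1 library at a time gave 433 to 1900 genes lower and 300 to 2163 higher among all genes, and 1 to 4 of the 9 members other than Anxa8 lower and 0 to 1 higher. The upper ends came from leaving out DMSO 1, and the 1 from leaving out any SB431542 library. Requiring a mean RPKM of at least 5 gave 41 genes lower by over 2-fold in place of 63 and 10 higher in place of 25 with SB431542, and 742 lower in place of 1144 with T-5224, over fewer genes tested. With SB431542, pseudocounts of 0.1 and 1 gave 38 and 12 genes higher by over 2-fold, against 25.

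Same-numbered libraries of the SB431542 experiment had correlations of deviations of -0.15, 0.15 and -0.09. Those of different-numbered libraries ran from -0.17 to 0.20. No sign of pairing by number was seen, but so few libraries cannot exclude it. A replicate block gave 699 genes lower and 572 higher, and 2 of the 9 members other than Anxa8 lower. For T-5224, the labels of its libraries and of its DMSO share no replicate numbers, but the columns do. Same-numbered columns had a correlation of deviations of 0.06, and a block by column number, chosen after seeing the data, gave 4364 genes lower and 4464 higher against 4260 and 4356, and changed no call of a named gene. Quantile normalization gave -1.57 for Anxa8 with T-5224. Median centring and quantile normalization moved the median of all genes by less than 0.1 on the log2 scale. Some calls with SB431542 were lost with a setting. With no filter on low values these were S100a3, S100a4, S100a16, Chmp4b, Krt5 and Krt15 (adjusted p from 0.0513 for S100a16 to 0.310 for Krt5), over more genes tested. Chmp4b was also lost with median centring and with no trend (adjusted p = 0.0683 and 0.0621), and Krt5, the same in all libraries under quantile normalization, was lost there. Under the replicate block S100a16, Myof, Sri, Cav1, Plscr3, Chmp4b, Krt5 and Epcam were lost. With T-5224, Pdcd6 and Pdcd6ip were lost under quantile normalization (adjusted p = 0.251 and 0.0632), and the cause was not tested. Without DMSO 1, Plau passed with SB431542 (-0.23). Where 1 library was left out of a pair, the lone library was assumed to vary like the other group. No passed call of a named gene turned its direction under the alternatives run.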
